A study of Mus musculus with 12 samples.

Results

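Glycolysis and hypoxia response genes were followed in 12 mammary tumors of female MMTV-Neu mice. Their transgene is Neu, the rodent form of the HER2 receptor, in its wild-type form without an activating mutation, and the promoter of the mouse mammary tumor virus (MMTV) directs it to the mammary gland. The 33 genes were chosen by symbol: the glucose transporter Slc2a1, the hexokinases, the enzymes from glucose 6-phosphate to lactate, the lactate exporter Slc16a3, the HIF subunits Hif1a and Epas1 and their prolyl hydroxylases, and well-known hypoxia response genes. They correspond to 34 entries of the 54532 in the tables, because Aldoa is listed under 2 identifiers, and all 34 were among the 15504 entries that passed the filter on low counts. The count of the second Aldoa entry, ENSMUSG00000114515, was a small part of that of the main entry.

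Feeding began when a tumor measured 4 mm across and lasted 10 days, on control diet or on a diet with 100 mg of MSU-42011 or of bexarotene per kg, and each group holds 4 tumors. Both compounds are agonists of the retinoid X receptor (RXR), a nuclear receptor that pairs with other nuclear receptors. The mice's age was not stated in the sources used here, and the comparisons ask how the transcriptome of the tumors differed between the control diet and either agonist and between the agonists. Poly(A) RNA was sequenced, and the total count per tumor ran from 16583413 to 25925027.

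Glycolysis splits glucose into pyruvate, and lactate dehydrogenase turns pyruvate into lactate so that the pathway can go on without oxygen. When oxygen is scarce, prolyl hydroxylases no longer mark the alpha subunits of hypoxia-inducible factor (HIF) for destruction, and HIF then switches on genes for glucose uptake, glycolysis, blood vessel growth and acid-base balance. Hif1a itself is controlled mainly at the protein level, so its mRNA is no measure of HIF activity. Solid tumors commonly use glycolysis heavily, and their poorly perfused regions show the hypoxia response.

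The tumors carried markers of mammary epithelium, with 1353 to 2533 counts per 1e6 normalized reads (CPM) of Epcam, 485 to 1225 of Krt8 and 525 to 1353 of Krt18. Krt19, of the same list of 9 markers, was low: it reached at most 1.96 in every tumor but bexarotene replicate 1, which had 28.15. Bexarotene replicate 1 stood apart from the other tumors: across genes it correlated with them at a median of 0.922, where every other tumor reached 0.97 or more. Its summed level of the 9 epithelial markers was the lowest, 3338 normalized CPM against 5078 to 6918 in the other tumors. Its summed level of 8 fibroblast markers was 10470 normalized CPM, and it had the highest level of all 12 tumors for all 8 of them, whereas the sum lay between 92.5 and 425.1 in control tumors, between 163.3 and 461.5 in MSU-42011 tumors and between 150.6 and 813.7 in the other bexarotene tumors. Control replicate 1 and bexarotene replicate 1 also contained skeletal muscle transcripts, with a sum over 12 markers of 187.9 and 328.4 against 6.18 to 15.7 in the other tumors. No marker in these lists was at 0 in every tumor. In bulk tumors, fewer cells of a type and less RNA per cell cannot be told apart.

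Glycolytic enzymes were among the most abundant mRNAs of these tumors when counts were scaled to gene length as FPKM. The lengths listed for genes were 1.0 to 16.2 times those that FPKM implies. The order of genes and the isozyme shares below can therefore depend on the length used. Aldolase C led with a mean of 2702 FPKM over the 12 tumors, which ranked it at position 18 of all 54532 entries. The main Aldoa entry followed with 2102, and then came Gapdh with 1512, Eno1 with 1445, Pkm with 1393 and Ldha with 968.9. Pfkl, Hk1, Tpi1 and Gpi1 had 562.4, 537.4, 484.1 and 466.4 FPKM. Neighbors in this order overlapped widely: the 12 tumors ran from 919.1 to 2150 FPKM for Gapdh, from 911.6 to 2174 for Eno1 and from 889.8 to 1784 for Pkm. The Eno1 value is uncertain, because its near copy Eno1b drew 76937 reads beside the 324243 of Eno1.

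**Figure D1:**
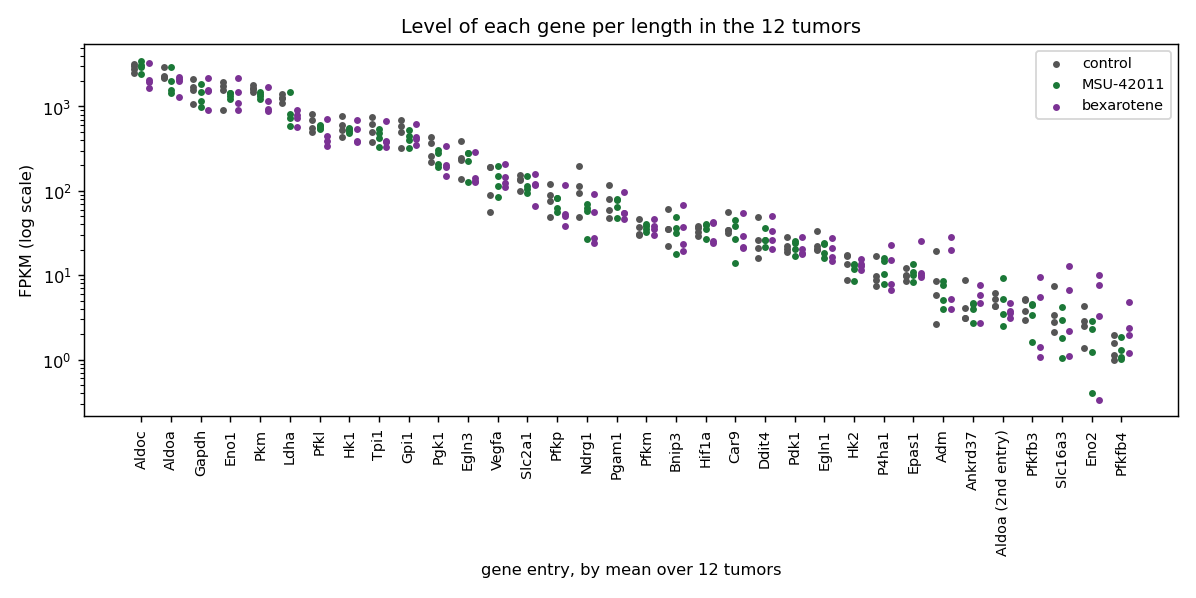
FPKM of each of the 34 gene entries on a log scale, with 1 point per tumor colored by diet group and genes ordered by their mean over 12 tumors. Aldoc is at the left with a mean of 2702 and Pfkfb4 at the right with 1.78, and neighboring genes overlap.

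Regulators and hypoxia response genes were spread over a wide range of FPKM. Egln3, a prolyl hydroxylase that is itself a HIF target, had a mean of 217.7 FPKM, Vegfa, the main growth factor of blood vessels, 138.8, and Slc2a1, the widespread glucose transporter, 120.8. Hif1a had 34.4, Car9, a cell surface carbonic anhydrase, 33.9, and Epas1, the HIF subunit of endothelium and other cells, 11.7. At the lower end were Pfkfb3 with 4.06, Slc16a3 with 4.04, Eno2 with 3.27 and Pfkfb4 with 1.78 FPKM.

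Within enzyme families, 1 isozyme usually made up most of the summed FPKM. Hk1 held between 95.7% and 98.0% of the sum of Hk1, Hk2 and Hk3 in every tumor, and Hk2, the hexokinase often induced in tumors, between 1.62% and 3.81%. Pfkl held between 79.6% and 86.3% of the 3 phosphofructokinase genes. Among prolyl hydroxylases, Egln3 held between 54.9% and 78.4% and Egln1, the main oxygen sensor of most cells, between 5.44% and 8.78%. Pdk1, the pyruvate dehydrogenase kinase that HIF induces, held between 8.56% and 16.7% of the 4 kinase genes, of which Pdk2 held between 76.2% and 88.0%. Aldolase was shared more evenly: Aldoc held between 45.1% and 68.7% of its sum with the main Aldoa entry. Ldha held between 75.0% and 88.9% of its sum with Ldhb.

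No gene of the set passed an adjusted p of 0.05 in any comparison by edgeR's quasi-likelihood F test, and nor did any other of the 15504 entries (0 of 34 members against a background of 0.0% in each of the 3 comparisons). DESeq2 and limma also called 0 of the 34 in each comparison. Over all genes limma called 0 in each, while DESeq2 called 1 of 29576 genes with MSU-42011 against control, 6 with bexarotene against control and 25 between the agonists (0.00338%, 0.0203% and 0.0845%). At an unadjusted p under 0.05, 1 of 34 entries differed between MSU-42011 and control tumors, where the background was 1.99% of all genes, 3 of 34 between bexarotene and control tumors, where it was 6.44%, and 1 of 34 between MSU-42011 and bexarotene tumors, where it was 3.95%. Among the 3 groups together, 0 of 34 passed the adjusted threshold and 3 of 34 (Pkm, Ldha and Ndrg1) the unadjusted one, where the background was 0.0% and 4.24%. With groups that did not overlap there were 1, 1 and 0 entries, beside 1.97%, 2.03% and 1.17% of all genes. The values that follow are therefore descriptions of differences that did not hold up against the spread between tumors after adjustment.

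Most of the set had a lower mean in tumors of either agonist diet. With MSU-42011, 32 of 34 entries had a negative log2 fold change, with a median of −0.28, while 49.7% of all genes were lower and their median was 0.00155. With bexarotene, 24 of 34 were negative with a median of −0.195, while 44.7% of all genes were lower and their median was 0.030. Both comparisons use the same 4 control tumors. Much of this lean came with control replicate 4, which had the highest level of the 12 tumors for 17 of the 34 entries, against 4.1% of all genes. Without it, 20 of 34 entries were negative with MSU-42011 (median −0.11) and 20 of 34 with bexarotene (median −0.037). Without bexarotene replicate 3, 28 of 34 were negative with bexarotene (median −0.40).

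**Figure D2:**
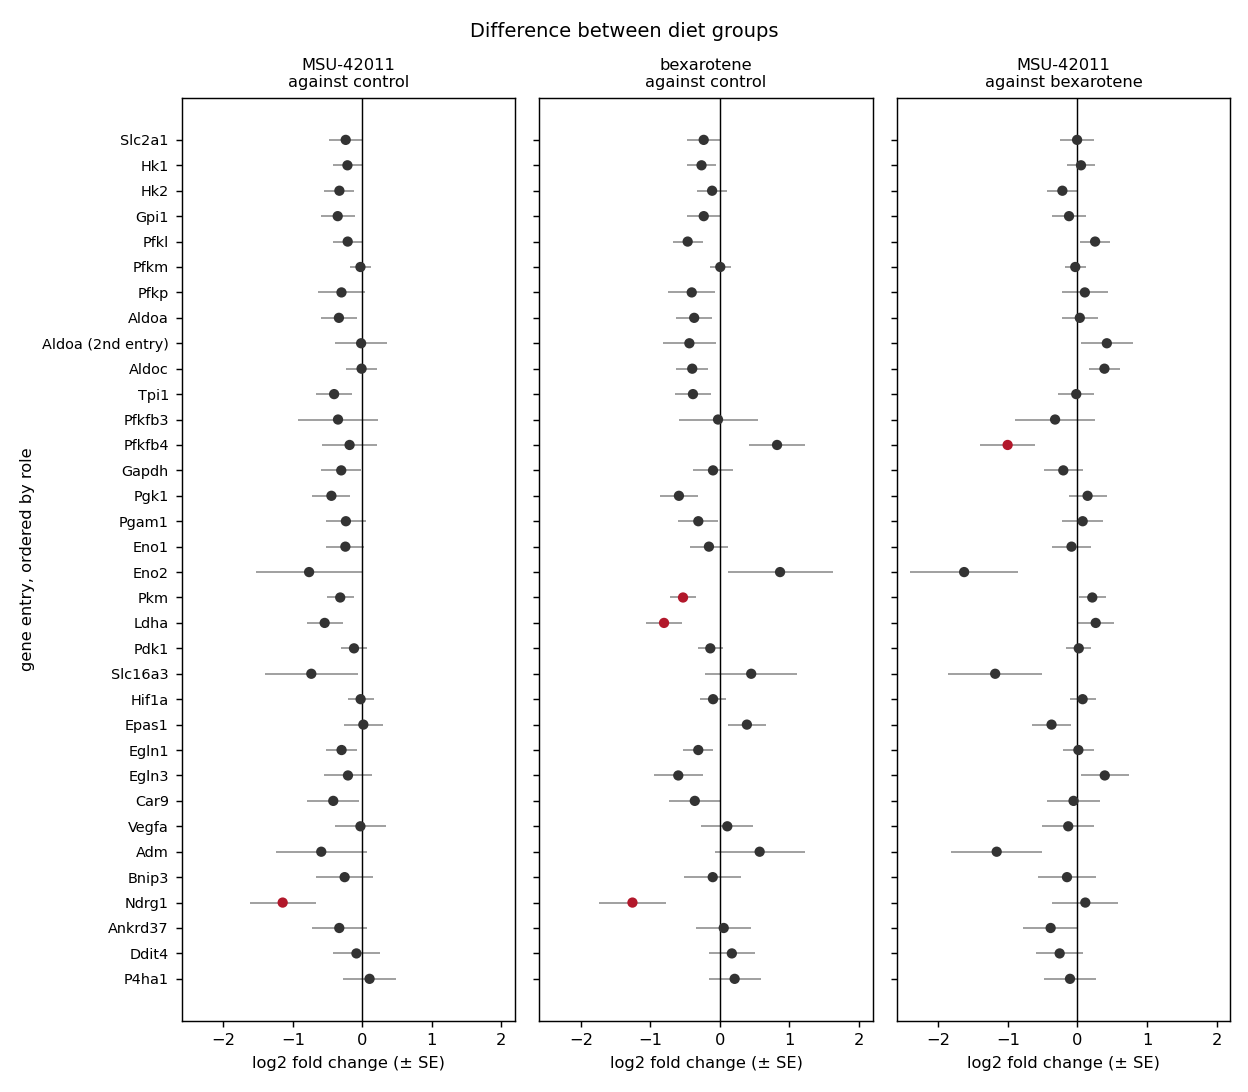
Log2 fold change of each gene entry in the 3 comparisons, with bars of 1 standard error from edgeR; red points have an unadjusted p under 0.05. Points in the left panel lie left of 0 for 32 of 34 entries, and in the middle panel for 24 of 34, with none past an adjusted p of 0.05.

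By role, the genes of glucose uptake and phosphorylation had medians of −0.24 with MSU-42011 and −0.23 with bexarotene, with 3 of 3 negative in each. In upper glycolysis, from glucose 6-phosphate to the triose phosphates, 8 of 8 entries were negative with MSU-42011 (median −0.26) and 7 of 8 with bexarotene (median −0.39). In lower glycolysis, from glyceraldehyde 3-phosphate to pyruvate, 6 of 6 and 5 of 6 were negative (medians −0.31 and −0.23). Of the pyruvate and lactate genes, 3 of 3 and 2 of 3 were negative (medians −0.54 and −0.14). The fructose 2,6-bisphosphate enzymes had 2 of 2 and 1 of 2 negative (medians −0.27 and 0.40). For the HIF subunits and prolyl hydroxylases it was 3 of 4 in each (medians −0.12 and −0.21). Of the 8 hypoxia response effectors, 7 were negative with MSU-42011 (median −0.29) and 3 with bexarotene (median 0.081). Without control replicate 4, only 2 of the 8 effectors were negative in each comparison (medians 0.15 and 0.45), whereas 17 and 15 of the 22 glycolysis entries were (medians −0.18 and −0.096).

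Ldha (ENSMUSG00000063229, chr7:46841475-46855627, GRCm38) encodes the lactate dehydrogenase subunit that favors lactate production. The 4 control tumors had 1091, 1411, 1208 and 1270 normalized CPM, the MSU-42011 tumors 695.2, 1419, 544.6 and 762.0, and the bexarotene tumors 663.9, 539.6, 845.1 and 804.1. All 4 bexarotene tumors lay below all control tumors, and so did 3 of the 4 MSU-42011 tumors, while MSU-42011 replicate 2 was above all of them. The log2 fold change with bexarotene was −0.80 (SE 0.26, edgeR p = 0.00932, adjusted p = 0.762), and the exact two-sided permutation test gave p = 0.0286, the smallest it can give. With MSU-42011 it was −0.54 (SE 0.26, edgeR p = 0.0587, adjusted p = 1.00, exact permutation p = 0.143). Dropping the highest tumor of the MSU-42011 group, replicate 2, gave −0.90, whereas dropping its lowest, replicate 3, gave −0.38. Between the agonists the 95% interval of the log2 difference ran from −0.30 to 0.83, so that neither a higher nor a lower level with MSU-42011 could be told.

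Pkm (chr9:59656368-59679375) encodes pyruvate kinase, which makes pyruvate and ATP in the last step of glycolysis. Its control tumors had 1812, 1724, 1807 and 2046 normalized CPM, its MSU-42011 tumors 1460, 1349, 1501 and 1618, and its bexarotene tumors 977.5, 972, 1812 and 1354. All MSU-42011 tumors lay below all control tumors, and bexarotene replicate 3 was as high as control replicate 1 while the other 3 bexarotene tumors were below every control. The log2 fold change with MSU-42011 was −0.32 (SE 0.19, edgeR p = 0.122, adjusted p = 1.00), with an exact permutation p of 0.0286. With bexarotene it was −0.53 (SE 0.19, edgeR p = 0.0167, adjusted p = 0.762, exact permutation p = 0.114). The interval between the agonists ran from −0.20 to 0.63 on the log2 scale.

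Pgk1, which encodes the first ATP-producing kinase of the pathway, had 379.7, 335.1, 528.9 and 659 normalized CPM in control tumors, 399.4, 303.1, 266.1 and 429.6 in MSU-42011 tumors and 264.4, 212.7, 477.9 and 309.5 in bexarotene tumors. Control replicate 4 was highest and the groups overlapped. The log2 fold change was −0.44 with MSU-42011 (SE 0.27, edgeR p = 0.13, exact permutation p = 0.2) and −0.59 with bexarotene (SE 0.27, edgeR p = 0.052, exact permutation p = 0.114), and −0.24 and −0.39 without control replicate 4. Pfkl, the most abundant phosphofructokinase, had a mean of 574.1 ± 192 normalized CPM in bexarotene tumors and 791.8 ± 164 in control tumors (SD, n = 4). Its log2 fold change was −0.46 (SE 0.22, edgeR p = 0.0519, exact permutation p = 0.114). It was −0.71 without bexarotene replicate 3 and −0.32 without bexarotene replicate 1.

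**Figure D3:**
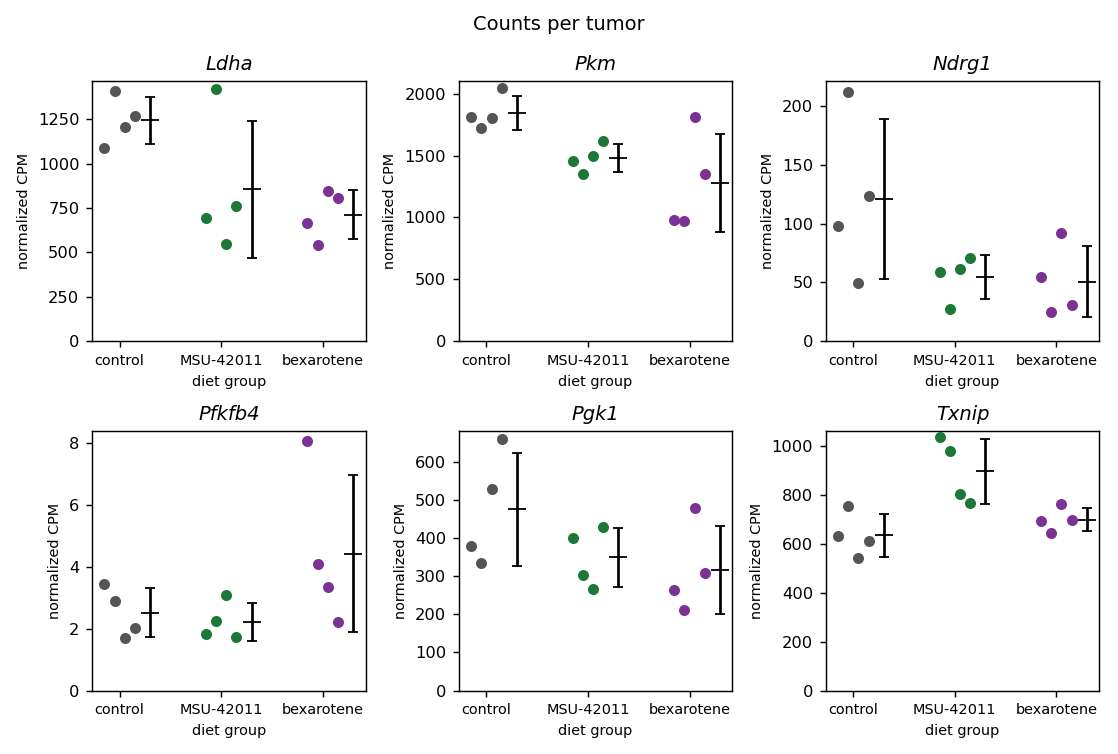
Normalized CPM of 6 genes, with 1 point per tumor and a black bar for the mean ± SD of the 4 tumors of each diet group, beside the points. For Ldha the 4 bexarotene tumors lie between 539.6 and 845.1, below all control tumors, and for Txnip the 4 MSU-42011 tumors lie above all others.

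Slc2a1 had 148.7, 209, 192.5 and 234.1 normalized CPM in control tumors, 136.7, 218.3, 161.4 and 148.4 with MSU-42011 and 91.4, 173.9, 222.8 and 179.4 with bexarotene. Hk2 had 21.2, 33.6, 40.9 and 41.3 in control tumors, 27.8, 31.8, 19.2 and 30.4 with MSU-42011 and 26.1, 36.7, 29.8 and 34.3 with bexarotene. The groups overlapped for both genes, and bexarotene replicate 1 was lowest for Slc2a1. Exact permutation p-values against control were 0.314 and 0.457 for Slc2a1 and 0.314 and 0.8 for Hk2.

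Aldoc, the aldolase known from brain and the most abundant member per length, had 2926, 3414, 3509 and 3870 normalized CPM in control tumors, 3397, 2797, 3485 and 3940 in MSU-42011 tumors and 1836, 2230, 2353 and 3992 in bexarotene tumors. Bexarotene replicates 1 to 3 were below all others, but bexarotene replicate 4 was the highest of the 12. The main Aldoa entry had 2277, 2474, 2295 and 3210 in control tumors, 1608, 3045, 1419 and 2050 with MSU-42011 and 1269, 2076, 2118 and 2473 with bexarotene. Gapdh, often used as a reference gene, had 1519, 1070, 1587 and 2096 in control tumors, 1390, 1112, 886.9 and 1694 with MSU-42011 and 830.9, 1451, 1982 and 1593 with bexarotene. Over all tumors Gapdh thus differed between the highest and the lowest by a factor of 2.52, with group means of 1568, 1271 and 1464 normalized CPM.

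Eno2, the neuronal enolase, had the largest spread of the set, with an SD of 1.13 on the log2 scale over the 12 tumors. It had 3.09, 1.7, 3.37 and 5.47 normalized CPM in control tumors, 3.41, 0.485, 1.41 and 2.68 with MSU-42011 and 11.4, 3.91, 9.01 and 0.429 with bexarotene. The bexarotene group held both the highest and the lowest tumor. Adm, which encodes the vessel-dilating peptide adrenomedullin, had 5.28, 2.41, 7.54 and 18 in control tumors, 7.42, 4.54, 3.41 and 6.71 with MSU-42011 and 23.7, 4.63, 17.3 and 3.74 with bexarotene. Slc16a3, the lactate exporter, had 5.28, 3.41, 4.33 and 12 in control tumors, 6.38, 1.64, 4.33 and 2.72 with MSU-42011 and 18.9, 3.34, 10.1 and 1.84 with bexarotene. For Adm and Slc16a3 the same 3 tumors were high, namely control replicate 4, bexarotene replicate 1 and bexarotene replicate 3.

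Pfkfb4, an enzyme that makes the phosphofructokinase activator fructose 2,6-bisphosphate, had 3.44, 2.89, 1.71 and 2.03 normalized CPM in control tumors, 1.82, 2.24, 3.09 and 1.72 with MSU-42011 and 8.08, 4.1, 3.34 and 2.21 with bexarotene. Bexarotene replicate 1 was the highest of all tumors. The log2 fold change of MSU-42011 against bexarotene was −1.005 (SE 0.40, edgeR p = 0.0268, adjusted p = 0.997, exact permutation p = 0.0857), and −0.54 without bexarotene replicate 1. The part of the fibroblast, macrophage and muscle transcripts of that tumor in this difference was not tested.

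Ndrg1, a stress-responsive gene induced by hypoxia, had 97.97, 211.9, 49.5 and 123.1 normalized CPM in control tumors, 58.6, 27.5, 61.5 and 70.5 with MSU-42011 and 54.8, 24.8, 91.6 and 30.4 with bexarotene. Control replicate 2 was the highest and control replicate 3 lay among the treated tumors. The log2 fold change was −1.15 with MSU-42011 (SE 0.48, edgeR p = 0.0329, adjusted p = 1.00) and −1.26 with bexarotene (SE 0.48, edgeR p = 0.0216, adjusted p = 0.762), and each exact permutation p was 0.114. Without control replicate 2 these values were −0.73 and −0.845. The interval of the difference between the agonists ran from −0.91 to 1.14 on the log2 scale.

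Hif1a had 95.4, 74.3, 78.3 and 91.8 normalized CPM in control tumors, 93.7, 64.6, 92.4 and 83.4 with MSU-42011 and 96.1, 60.2, 99.9 and 61.1 with bexarotene, so that the groups overlapped. The whole range over 12 tumors was a factor of 1.66. Epas1 had 46.9, 68.3, 51.7 and 55.9 in control tumors, 53.3, 58.8, 69.6 and 43.6 with MSU-42011 and 129.7, 53, 54.7 and 54.1 with bexarotene. Its high value was that of bexarotene replicate 1, where all 8 endothelial markers were also highest, with a summed level of 475.7 normalized CPM against 87.4 to 222.5 in the other tumors. All 8 fibroblast, all 8 macrophage and all 8 adipocyte markers were highest in that tumor too. The part of these transcripts in its Epas1 level was not tested. Egln3 lay between 339.9 and 1085 normalized CPM and Egln1 between 52.6 and 125.5, with control replicate 4 highest for both.

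Vegfa had 112.4, 72, 234.9 and 249.6 normalized CPM in control tumors, 236.1, 104.9, 134.4 and 181.1 with MSU-42011 and 146.4, 177.8, 248.7 and 147.3 with bexarotene. Car9 had 27.9, 30.5, 29.1 and 50.6 in control tumors, 32, 12, 21.8 and 37.5 with MSU-42011 and 17.1, 18.4, 45.9 and 26.2 with bexarotene. The groups overlapped for each, with exact permutation p-values against control of 0.886 and 0.714 for Vegfa and 0.343 and 0.229 for Car9. The Car9 count is uncertain because the antisense entry Gm12454 overlaps it, with 1548 reads beside 7132, and the strand setting of the counting was not given in the sources used here. The Ankrd37 count of 822 reads in all is uncertain as well, since Ufsp2 on the opposite strand drew 12221. The same holds for Pfkm, with 17257 reads beside 9882 of Senp1, for Pfkp, with 35420 beside 8536 of Pitrm1, and for the second Aldoa entry, with 861 beside 321 of Fam57b, so that the phosphofructokinase shares given above are uncertain to that extent.

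The remaining members showed group overlap in every comparison, and none reached an unadjusted p of 0.05 by edgeR. Of the glycolysis genes among them, Hk1 lay between 471.8 and 986.9 normalized CPM over the 12 tumors, Gpi1, which turns glucose 6-phosphate into fructose 6-phosphate, between 361.0 and 838.6, and Tpi1, which interconverts the triose phosphates, between 285.2 and 717.5. Pfkp lay between 76.6 and 251.7, Pgam1, the phosphoglycerate mutase, between 84.9 and 224.0, Eno1 between 819.0 and 1980, and the second Aldoa entry between 1.84 and 7.27. Control replicate 4 was highest for Gpi1, Tpi1, Pfkp and Pgam1. Pfkm, the phosphofructokinase of muscle, varied least of these, by a factor of 1.52, and Pfkfb3, the relative of Pfkfb4, most, by a factor of 8.02, from 2.51 in bexarotene replicate 4 to 20.1 in bexarotene replicate 1. Pdk1 lay between 30.2 and 54.0. Among the effectors, Bnip3 lay between 12.8 and 48.1, Ddit4, an inhibitor of mTORC1 signaling, between 29.8 and 88.8, P4ha1, a collagen prolyl hydroxylase, between 21.9 and 67.3, and Ankrd37 between 1.84 and 6.51. Bexarotene replicate 3 was highest for Bnip3 and bexarotene replicate 1 for P4ha1.

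Tumors of the same diet group differed in the level of many of these genes at once. Control replicate 4 had the highest level for 17 of the 34 entries, among them Car9, Vegfa, Ankrd37 and Ddit4 of the effectors, and 11 of the 22 glycolysis entries. The median of the 8 effectors in it was 0.76 above the control mean on the log2 scale, and in bexarotene replicate 3 it was 0.70. In the other 10 tumors it lay between −0.56 and 0.12. The 22 glycolysis entries had their highest medians in these same tumors, 0.35 and 0.23, and their lowest in bexarotene replicate 1 with −0.67 and bexarotene replicate 2 with −0.53. Bexarotene replicate 1 also had the lowest epithelial sum, and the part of this in its low median was not tested. The median of all 15504 genes lay between −0.0088 and 0.030 in every tumor.

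**Figure D4:**
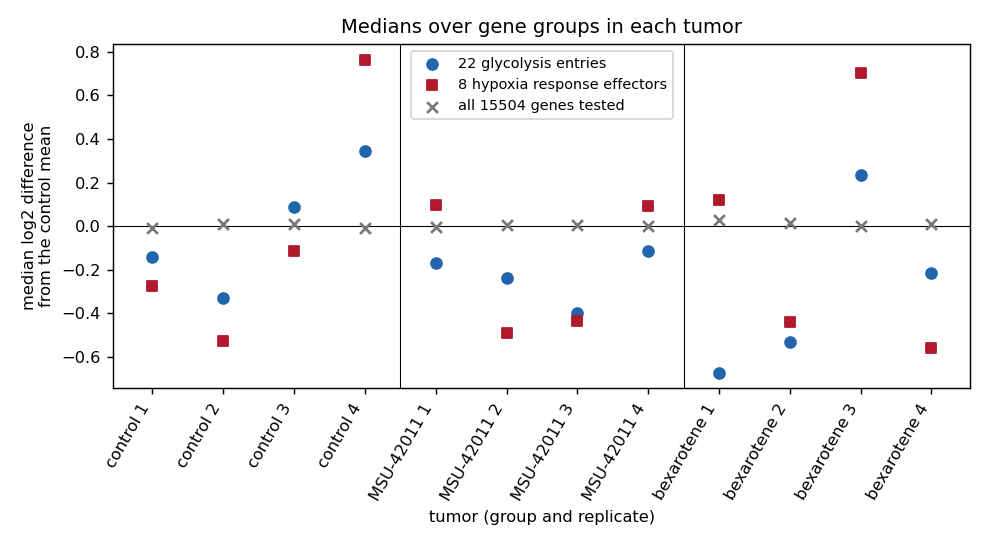
Median log2 difference from the mean of the control tumors in each tumor, for the 22 glycolysis entries, the 8 hypoxia response effectors and all 15504 genes tested. Control replicate 4 and bexarotene replicate 3 are the highest for the effectors, at 0.76 and 0.70, while all genes stay close to 0.

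In control replicate 4 the summed marker levels of epithelium (6180 normalized CPM), fibroblasts (252.4), endothelium (160.3), macrophages (301.6), skeletal muscle (9.57) and T cells (9.44) lay between those of the other control tumors. Its adipocyte sum of 54.2 was the highest of the control group, where the others had 37.4 to 52.6, and among the T cell markers it was the highest of all tumors for 1 of 6, Cd8a. Its red blood cell sum of 222.5 was the lowest of the control group, where the others had 278.1 to 570.7. Its B cell sum, at low counts, was the highest of that group with 0.905, against 0.475 to 0.568. The part of these transcripts in its levels of glycolysis and hypoxia genes was not tested. Its total of 24223315 reads was the highest of the control group. Bexarotene replicate 1 was lowest for 7 of the 34 entries, beside 11.9% of all genes. It was highest for 7 of the 34, namely Pfkfb3, Pfkfb4, Eno2, Slc16a3, Epas1, Adm and P4ha1. As it was the highest tumor for 19.1% of all genes, this second count was close to the background.

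**Figure D5:**
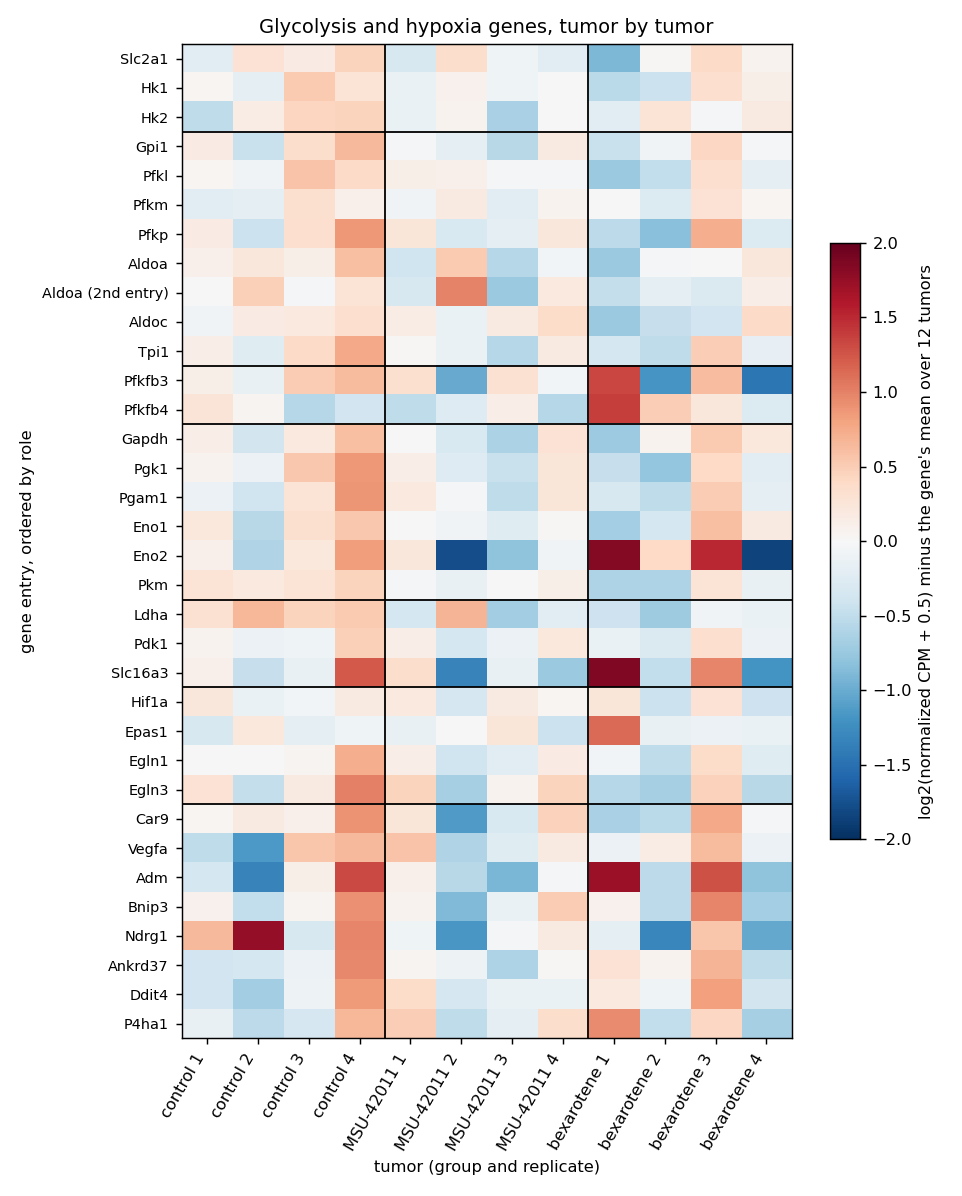
Log2 normalized CPM of the 34 gene entries in 12 tumors, each minus its own mean over the tumors, with genes in rows by role and tumors in columns by diet group (red higher, blue lower; values beyond 2 take the end color). Control replicate 4 is the highest tumor in 17 of 34 rows, and bexarotene replicate 1 is blue for most enzymes but red for Pfkfb3, Pfkfb4, Eno2, Slc16a3, Epas1 and Adm.

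Over the 12 tumors, the 561 pairs of entries had a median Pearson's r of 0.41, and 20% of them exceeded 0.7. Pairs of a member with any gene tested had a median of −0.011, and 1.82% exceeded 0.7. These values are a description, since all pairs share the same libraries. The highest were those of Tpi1 with Pgk1 (r = 0.963) and with Pgam1 (0.957), of Gpi1 with Gapdh (0.94), of Pfkp with Pgk1 (0.939) and of Pdk1 with Egln1 (0.938). The lowest was that of Pfkfb4 with Aldoc (−0.855). Values were also high across roles, with 0.919 for Pdk1 with Bnip3 and 0.915 for Pdk1 with Car9.

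Of 8 pairs tested, none passed a Benjamini-Hochberg adjusted p of 0.05. The closest was Pgk1 with the mitophagy gene Bnip3, with r = 0.72 (permutation p = 0.00846, adjusted p = 0.0677) and Spearman's rho = 0.608 (permutation p = 0.0403, adjusted p = 0.107). It was 0.588 without the 2 tumors farthest from the median of Pgk1 and 0.784 with group means subtracted. Vegfa with Adm had r = 0.639 (permutation p = 0.0264, adjusted p = 0.106) and rho = 0.699 (permutation p = 0.0149, adjusted p = 0.107), with 0.423 without the 2 farthest tumors. Without bexarotene replicate 1 the Vegfa and Adm value was 0.818. Pecam1, an endothelial marker, with Epas1 had r = 0.654 (permutation p = 0.0424, adjusted p = 0.113) and rho = 0.224 (permutation p = 0.484, adjusted p = 0.645), and this rested on bexarotene replicate 1, without which r was 0.0095. For Slc2a1 with Hk2 r was 0.522 (permutation p = 0.0827, adjusted p = 0.132) and for Pgk1 with Ldha 0.54 (permutation p = 0.0706, adjusted p = 0.132), with rho = 0.608 and 0.503 (permutation p = 0.0399 and 0.0983, adjusted p = 0.107 and 0.197) and, without the 2 farthest tumors, r = 0.473 and 0.281. With group means subtracted, r was 0.513 for Slc2a1 with Hk2, 0.237 for Pgk1 with Ldha, 0.64 for Vegfa with Adm and 0.628 for Pecam1 with Epas1. The remaining 3 pairs were Hif1a with Vegfa (r = 0.317, rho = 0.266), Vegfa with Ndrg1 (r = −0.161, rho = 0.056) and the muscle marker Ckm with Pfkm (r = −0.148, rho = −0.021). Their permutation p-values for r were 0.314, 0.617 and 0.676 (adjusted p = 0.419, 0.676 and 0.676).

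HIF binds DNA at short sites whose core is ACGTG or GCGTG, and the promoters of the set were searched for these letters on both strands. RefSeq windows of 300 bases on GRCm38.p6, from 250 bases before the annotated start to 50 after it, were matched for 31 of the 33 genes, without Ndrg1 and Epas1. Of these, 24 of 31 (77.4%) held at least 1 match, against 43.8% of all 32851 windows and 59.9% of the windows of genes tested here. ACGTG was in 18 of 31 windows (58.1%), against 19.6% of all windows and 24.4% of those of genes tested. GCGTG was in 16 (51.6%), against 32.4% and 48.6%, so that its share was close to that of the genes tested. The palindrome CACGTG, which counts as a match of ACGTG on each strand, was in 4 of the 31 windows (12.9%), against 7.15% of all windows and 9.49% of those of genes tested. A match is a string of letters and not a site shown to be bound. The genes were chosen by symbol, among them well-known hypoxia response genes, so these shares are no independent evidence. Whether the matches bear on the correlations over the tumors was not tested.

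These 6 windows are written 5′ to 3′ on the gene's own strand, with matches in capitals, which read CACGT or CACGC where the match is on the other strand. Ldha was chosen as the member with the smallest p, Pgk1 and Bnip3 as the pair with the highest correlation of those tested, Car9 as a classic HIF target, and Pkm and Vegfa as members whose windows hold no match.
Ldha promoter, chr7:46845554-46845853, plus strand: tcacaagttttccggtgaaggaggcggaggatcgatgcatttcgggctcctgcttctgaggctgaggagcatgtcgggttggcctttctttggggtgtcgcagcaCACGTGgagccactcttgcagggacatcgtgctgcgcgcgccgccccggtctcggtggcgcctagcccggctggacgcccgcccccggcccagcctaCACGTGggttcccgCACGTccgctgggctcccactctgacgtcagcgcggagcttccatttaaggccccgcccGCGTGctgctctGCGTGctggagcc
Pgk1 promoter, chrX:106186850-106187149, plus strand: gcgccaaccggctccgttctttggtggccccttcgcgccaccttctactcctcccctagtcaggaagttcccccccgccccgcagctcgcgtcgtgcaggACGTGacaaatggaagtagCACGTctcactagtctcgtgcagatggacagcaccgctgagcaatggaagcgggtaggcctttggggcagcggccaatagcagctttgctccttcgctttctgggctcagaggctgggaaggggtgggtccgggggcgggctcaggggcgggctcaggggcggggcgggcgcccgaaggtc
Bnip3 promoter, chr7:138909457-138909756, minus strand: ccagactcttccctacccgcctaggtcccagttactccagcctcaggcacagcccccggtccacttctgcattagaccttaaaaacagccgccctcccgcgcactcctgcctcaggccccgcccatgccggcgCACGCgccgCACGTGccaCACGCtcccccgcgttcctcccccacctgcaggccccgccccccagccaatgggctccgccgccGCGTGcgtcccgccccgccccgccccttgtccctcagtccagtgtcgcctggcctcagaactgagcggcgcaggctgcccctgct
Car9 promoter, chr4:43506776-43507075, plus strand: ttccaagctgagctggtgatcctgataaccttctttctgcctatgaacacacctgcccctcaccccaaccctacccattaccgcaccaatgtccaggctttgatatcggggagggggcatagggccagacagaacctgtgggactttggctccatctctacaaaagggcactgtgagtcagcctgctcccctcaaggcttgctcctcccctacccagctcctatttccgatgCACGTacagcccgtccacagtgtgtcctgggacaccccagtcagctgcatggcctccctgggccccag
Pkm promoter, chr9:59656326-59656625, plus strand: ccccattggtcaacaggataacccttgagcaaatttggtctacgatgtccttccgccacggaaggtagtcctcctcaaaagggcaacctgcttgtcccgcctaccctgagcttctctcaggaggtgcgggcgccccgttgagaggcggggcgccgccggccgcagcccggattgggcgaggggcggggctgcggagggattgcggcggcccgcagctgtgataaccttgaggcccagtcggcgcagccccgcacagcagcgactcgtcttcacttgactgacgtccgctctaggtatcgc
Vegfa promoter, chr17:46032328-46032627, minus strand: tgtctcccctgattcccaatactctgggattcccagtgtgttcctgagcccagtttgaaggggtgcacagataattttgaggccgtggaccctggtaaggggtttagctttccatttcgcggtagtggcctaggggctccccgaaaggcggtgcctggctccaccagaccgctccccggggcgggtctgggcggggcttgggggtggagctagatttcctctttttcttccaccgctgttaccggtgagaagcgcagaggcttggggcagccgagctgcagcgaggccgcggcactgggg

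The Ldha window holds 7 matches, of which 4 come from 2 copies of CACGTG. Its start lies 4329 bases downstream of the start that the tables list for Ldha. The Bnip3 window holds 5 matches and 1 copy of CACGTG, the Pgk1 window 2 matches and the Car9 window 1. The Pkm and Vegfa windows hold neither word, although Vegfa levels varied between tumors by a factor of 3.47. Absence from these windows says nothing of sites elsewhere in a gene.

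Of 38 tested genes in a further list of glucose metabolism, 0 passed the adjusted p in any comparison by edgeR, 26 had a negative log2 fold change with MSU-42011 (median −0.11) and 17 with bexarotene (median 0.057). Of 45 tested genes in a further list of hypoxia response, 0 passed, and 28 and 24 were negative (medians −0.055 and −0.019). Over all genes, 49.7% were lower with MSU-42011 and 44.7% with bexarotene. At an unadjusted p under 0.05, the metabolic list had 1 gene with a higher mean in MSU-42011 tumors and 1 with a lower mean in bexarotene tumors, each against control. In the hypoxia list 1 was lower with MSU-42011, and 1 was lower and 3 were higher with bexarotene. The background in either direction was 1.99% of all genes with MSU-42011 and 6.44% with bexarotene.

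Txnip, whose protein restrains glucose uptake and which responds to glucose, was the metabolic gene higher with MSU-42011. It had 632.4, 754.2, 542.3 and 612.1 normalized CPM in control tumors, 1038, 979.6, 802.1 and 768.1 with MSU-42011 and 693.8, 645.3, 762.4 and 697.3 with bexarotene. All 4 MSU-42011 tumors were above all 8 others. The log2 fold change against control was 0.50 (SE 0.14, edgeR p = 0.0037, adjusted p = 1.00) and against bexarotene 0.36 (SE 0.14, edgeR p = 0.0239, adjusted p = 0.997), and both exact permutation p-values were 0.0286, the smallest possible. Its relative Arrdc4 had a mean of 104.2 ± 17.7 normalized CPM with MSU-42011 and 147.6 ± 49.9 in control tumors (SD, n = 4). Pgd of the pentose phosphate pathway had 181 ± 9.85 and 209.7 ± 16.9, and the monocarboxylate transporter Slc16a7 had 9.9 ± 2.08 and 7.36 ± 1.75. The hypoxia gene Rab20 had 10, 14.4, 8.78 and 11.9 with MSU-42011 and 17, 19.1, 13.2 and 15.5 in control tumors (log2 fold change −0.52, SE 0.21, edgeR p = 0.0292, adjusted p = 1.00, exact permutation p = 0.0571). MSU-42011 tumors lay below all control tumors for the glycogen synthase Gys1, which is in both further lists, with means of 52.9 ± 3.05 and 65.5 ± 7.92. Its edgeR p was 0.123 (adjusted p = 0.9999) and its exact permutation p 0.0286. Groups did not overlap for 1.97% of all genes in this comparison.

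Of the hypoxia genes with a higher mean in the bexarotene group, Lox and Loxl2 are genes of the matrix, and both were highest in bexarotene replicate 1. Lox, which cross-links collagen, had 502.3, 35.6, 3.68 and 0.613 normalized CPM with bexarotene and between 0.568 and 17.3 in control tumors. Loxl2, a relative of Lox, had 94.1, 10.5, 7.85 and 5.27 against 2.89 to 12.3. The log2 fold changes of Lox and Loxl2 with bexarotene were 4.55 and 2.04 (edgeR p = 0.0142 and 0.0296, adjusted p = 0.762 for each, exact permutation p = 0.343 and 0.314), and 1.19 and 0.14 without bexarotene replicate 1. This is the tumor with the high fibroblast sum given above, and the part of those transcripts in the difference was not tested. For MSU-42011 against bexarotene the same genes had −5.51 and −2.0, and −2.16 and −0.097 without that tumor.

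Cited2, which competes with HIF for a coactivator, had 130.6, 143.8, 200.6 and 140.5 normalized CPM with bexarotene and 245.4, 371.1, 178.4 and 222.6 in control tumors (log2 fold change −0.73, SE 0.25, edgeR p = 0.0137, adjusted p = 0.762, exact permutation p = 0.0571). Bexarotene replicate 3 was above control replicate 3, and the other bexarotene tumors were below every control. Ldhb, the lactate dehydrogenase subunit that favors pyruvate, had 85.7, 121.8, 166.9 and 139.2 with bexarotene and 160.3 to 179.2 in control tumors (log2 fold change −0.38, SE 0.17, edgeR p = 0.0477, adjusted p = 0.773, exact permutation p = 0.114), and −0.23 without bexarotene replicate 1. Eno3, the muscle enolase, had 25.1, 13.6, 5.91 and 8.64 with bexarotene and 4.82 to 8.97 with MSU-42011 (log2 fold change −1.02 for MSU-42011 against bexarotene, SE 0.41, edgeR p = 0.029, adjusted p = 0.997, exact permutation p = 0.143). Its highest value came in bexarotene replicate 1, which also had the highest skeletal muscle sum, and the log2 fold change without that tumor was −0.51. Bexarotene replicate 2 was next with 13.6, and its skeletal muscle sum was 6.53. The part of muscle transcripts in the difference was not tested.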

How the data were processed

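RNA-seq data from 12 mammary tumors were analyzed, 4 in each of the control, MSU-42011 and bexarotene groups, which were taken from the labels. Per the submitters' processing notes, STAR 2.6.1d, featureCounts 1.5.0-p3 and DESeq2 were used; their strand option and build are not given in the sources used here. The authors deposited raw read counts of 54532 genes without normalization, and FPKM, in which they divided each count by the tumor's total count and by 1 length per gene that was the same in all tumors (29907 of 29907 genes with counts, tolerance 1e-06). Coordinates matched GENCODE M21 on GRCm38 for 98.3% of the 54495 genes found in it. Columns of single tumors were all mapped to a tumor (0 left over).

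Counts were normalized by TMM in edgeR 4.0.16 (R 4.3.3), filtered by filterByExpr at its defaults (15504 entries), and tested by the quasi-likelihood F test in 1 model of 3 groups with Benjamini-Hochberg adjustment over all entries and a threshold of 0.05. Single genes were compared by exact two-sided permutation tests on log2(normalized CPM + 0.5), whose smallest p for 4 against 4 is 0.0286, and 8 pairs of genes by correlation with 100000 resamples. FPKM was used for levels and isozyme shares, and limma 3.58.1 on log2(FPKM + 1) and DESeq2 1.42.0 as alternatives. The biological coefficient of variation was 0.338. The floor of 3 counts lay between 0.111 and 0.184 normalized CPM, and floors cover counting error only. Nothing in the labels names a separate animal for each tumor; the paper's text gives 4 mice per group. Tests were also tried on simulated counts with known changes.

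The members, the gene lists and the tests were chosen with earlier results of these data known. Named were the members at an unadjusted p under 0.05 or with groups that did not overlap, 8 preset members, the 3 most variable, the 3 highest by FPKM and, from 2 further lists, up to 5 genes with the smallest p per comparison, of which 1 is not reported here; Pgk1 and Pfkl fold changes, Gys1, isozymes and correlated pairs were described after their values were seen. Promoter windows are RefSeq's on GRCm38.p6, taking for each gene the window nearest to its listed start, while the shares over all windows count every window of a gene.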

Additional observations from a re-analysis of the deposited data

Results flagged for a closer look

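In 5 of 102 groups of 4 tumors (34 entries in 3 groups), the highest tumor lay far from the other tumors of its group by Dixon's ratio, which divides its gap to the nearest tumor by the group's range, above its 95% critical value. Chance alone flags about 1 in 20 groups. In control tumors, control replicate 4 was high for Egln1 (ratio 0.928, 125.5 normalized CPM against 74.9 to 78.5), Car9 (0.883, 50.6 against 27.9 to 30.5) and Ankrd37 (0.864, 6.51 against 2.26 to 2.83). In bexarotene tumors, bexarotene replicate 3 was high for Egln3 (0.931, 746.9 against 339.9 to 368.1) and bexarotene replicate 1 for Epas1 (0.978, 129.7 against 53 to 54.7).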

How the results depend on the processing

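No member passed an adjusted p of 0.05 under any of the 22 alternatives, and none of the 23 fold changes recomputed turned its sign. Most of these 23 belong to genes named for a small p or for groups without overlap, which makes a stable sign likely from the start. Over all 34 members signs did change: 32 were negative with MSU-42011, but 20 without control replicate 4. Medians of the members ranged from −0.386 to −0.114 with MSU-42011 and from −0.404 to −0.0369 with bexarotene. In both, the value nearest to 0 came without control replicate 4. Between the agonists the median ranged from −0.13 to 0.172, so that its sign changed. The counts of members at an unadjusted p under 0.05 varied as well. For MSU-42011 against control (1), the count was 2 with DESeq2, 2 without a filter on low counts and 2 with the 2 groups alone (1.59%, 2.23% and 2.66% of all genes); for bexarotene against control (3), it was 6 with DESeq2 and 5 without a filter (4.7% and 6.24%); for MSU-42011 against bexarotene (1), it was 2 with DESeq2, 2 without a filter and 0 with limma on unfiltered FPKM (3.13%, 4.74% and 2.63%). With 1 tumor left out, the counts ran from 0 to 2, from 1 to 9 and from 0 to 5, where all genes ran from 1.15% to 4.27%, from 3.35% to 10.1% and from 2.72% to 7.87%; the 9 came without bexarotene replicate 3 (10.1% of all genes) and the 5 without bexarotene replicate 4 (6.05%). Without control replicate 1 and bexarotene replicate 1, chosen after seeing the data for their muscle transcripts, they were 2, 2 and 0 (2.35%, 2.69% and 2.87%). With the replicate number as a block they were 0, 6 and 2 (2.1%, 4.59% and 2.68%), but the numbers do not pair the tumors: same-numbered tumors of different groups correlated between −0.388 and 0.38 in 12 pairs, of which 5 exceeded 0.1. The cause of these differences was not tested. Low counts, such as those of Pfkfb4 and Eno2, and the spread between tumors, as for Ndrg1, limit precision.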
